A study of Mus musculus with 4 samples.

Results

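T cell and intraepithelial lymphocyte genes were followed in the ileum of metformin-treated and control mice. The set lists 10 genes: Cd3e, Cd3g, Cd8a, Cd8b1, Klrd1, Nkg7, Gzma, Gzmb, Gzmc and Itgae. Array probes were assigned to them through the RefSeq accession that each probe carries. This gave 11 probes for 9 of the 10 genes, out of 20866 named genes with a usable probe on the arrays. Itgae had no matched probe and was not analysed here.

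The metformin group was 2 ileal RNA samples from male C57BL/6J mice aged 10 weeks that had received oral metformin at 1000 mg/kg, and the control group was 2 ileal RNA samples from mice of the same strain, sex and age. Metformin is a biguanide drug given for type 2 diabetes. The treatment text of the labels stands on every sample, so the sample titles were used to separate the groups, and neither the duration of dosing nor a vehicle is stated. Each RNA sample was labelled with Cy3 and hybridised to 1 Agilent single-colour array. Whether the 2 samples in each group were taken from different mice is not given, so the spread within a group, on which every p-value rests, could be technical in part. The 4 arrays shared 1 slide and 1 scan, with metformin 1 and metformin 2 at positions 3 and 4 and the controls at positions 1 and 2, so that slide position and treatment cannot be told apart.

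Intraepithelial lymphocytes are T cells that sit between the absorptive cells of the gut lining, where most of them carry CD8 and many are armed for killing. Their T cell receptor signals through the CD3 chains, CD8 chains bind class I MHC molecules beside it, and the integrin encoded by Itgae holds the cells to E-cadherin on the epithelium. Killing proceeds by the release of granules that hold perforin, which opens the target membrane, and granzymes, proteases that enter the target cell.

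Levels are given as log2 of the processed signal minus the 75th percentile of the same array, so 0 marks a signal equal to that percentile and a step of 1 is a doubling. Levels are compared between arrays for the same probe, never between probes. A signal was called well above background as the scanner software marked it. The 75th percentile was at a signal of 864 and 1067 on metformin 1 and 2, against 915 and 1453 on control 1 and 2. Between 65.1% and 69.1% of probes were well above background on each array, and no spot was saturated. The number of arrays, 2 a group, limits the precision of every difference below.

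The 4 arrays were not most alike within treatment groups. Across the 21648 genes tested, metformin 2 correlated most closely with control 2 (Pearson r = 0.993 across genes), whereas metformin 1 and metformin 2 gave r = 0.967 and the 2 controls r = 0.973. Metformin 1 stood apart in its regional markers. The median of 6 genes high in the distal small intestine, relative to the control mean of each gene, was -2.0 on metformin 1 and 0.29 on metformin 2, against 0.27 and -0.27 on the controls. The median of 8 genes high in the proximal small intestine was 2.35 on metformin 1 and -0.68 on metformin 2, against 0.30 and -0.30 on the controls. Control 1 stood apart in its smooth muscle markers, whose summed level, in multiples of each array's 75th percentile signal, was 6.54 and 8.71 on the metformin arrays, against 207 on control 1 and 10.0 on control 2. The groups were separate for fibroblast, vessel and fat markers, of which 9 of 10 were lower with metformin without overlap, against 8.46% of all genes. Their median was -1.60 and -2.65 on the metformin arrays, against 0.32 and -0.32 on the controls. The part of these differences in the lymphocyte results was not tested, and the results of the set are given array by array and without single arrays.

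All 9 measured genes had a higher mean with metformin, by 0.50 to 2.18 on the log2 scale, with a median of 1.09 against 0.06 over all genes tested. Where signals not well above background were raised to the dimmest signal called well above background on their array, in short the floor, the median was 0.92. A positive difference was found for 57.9% of all genes. Cd8b1 and Gzmc were kept for the test only because both metformin arrays were well above background. This filter favoured a positive difference for them. No gene of the 9 passed the test: each had an adjusted p of 0.9996 (limma, Benjamini-Hochberg over all genes tested), and 0.0% of all genes passed. At an unadjusted p under 0.05 (limma), Gzmc alone of the 9 was called higher, against 0.351% of all genes called higher, with both of its control signals not well above background, and none was called lower, against 1.25% of all genes. No gene of the set had a negative difference, against 42.1% of all genes. Metformin 1 lay above both controls for all 9 genes, against 42.7% of all genes. Metformin 1 held the highest of the 4 values for 8 of the 9 genes, all but Nkg7, against 38.5% of all genes. Metformin 1 was at least 2-fold above the control mean for the same 8 genes, against 7.2% of all genes. Metformin 2 was at least 2-fold above the control mean for Gzmc alone, against 1.77% of all genes, and at least 2-fold below it for none, against 4.31%. With dim signals at the floor, Gzmc on metformin 2 was 1.24-fold above the control mean. No gene of the set reached 2-fold there, against 1.52% of all genes. Metformin 2 lay above both controls for Klrd1, Nkg7 and Gzmc, 3 of the 9 genes, against 28.5% of all genes, and below both for none, against 21.6%. For Gzmc this order rests on control signals not well above background. In a piece of tissue, a change in the number of cells of a type and a change in RNA per cell cannot be told apart.

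**Figure D1:**
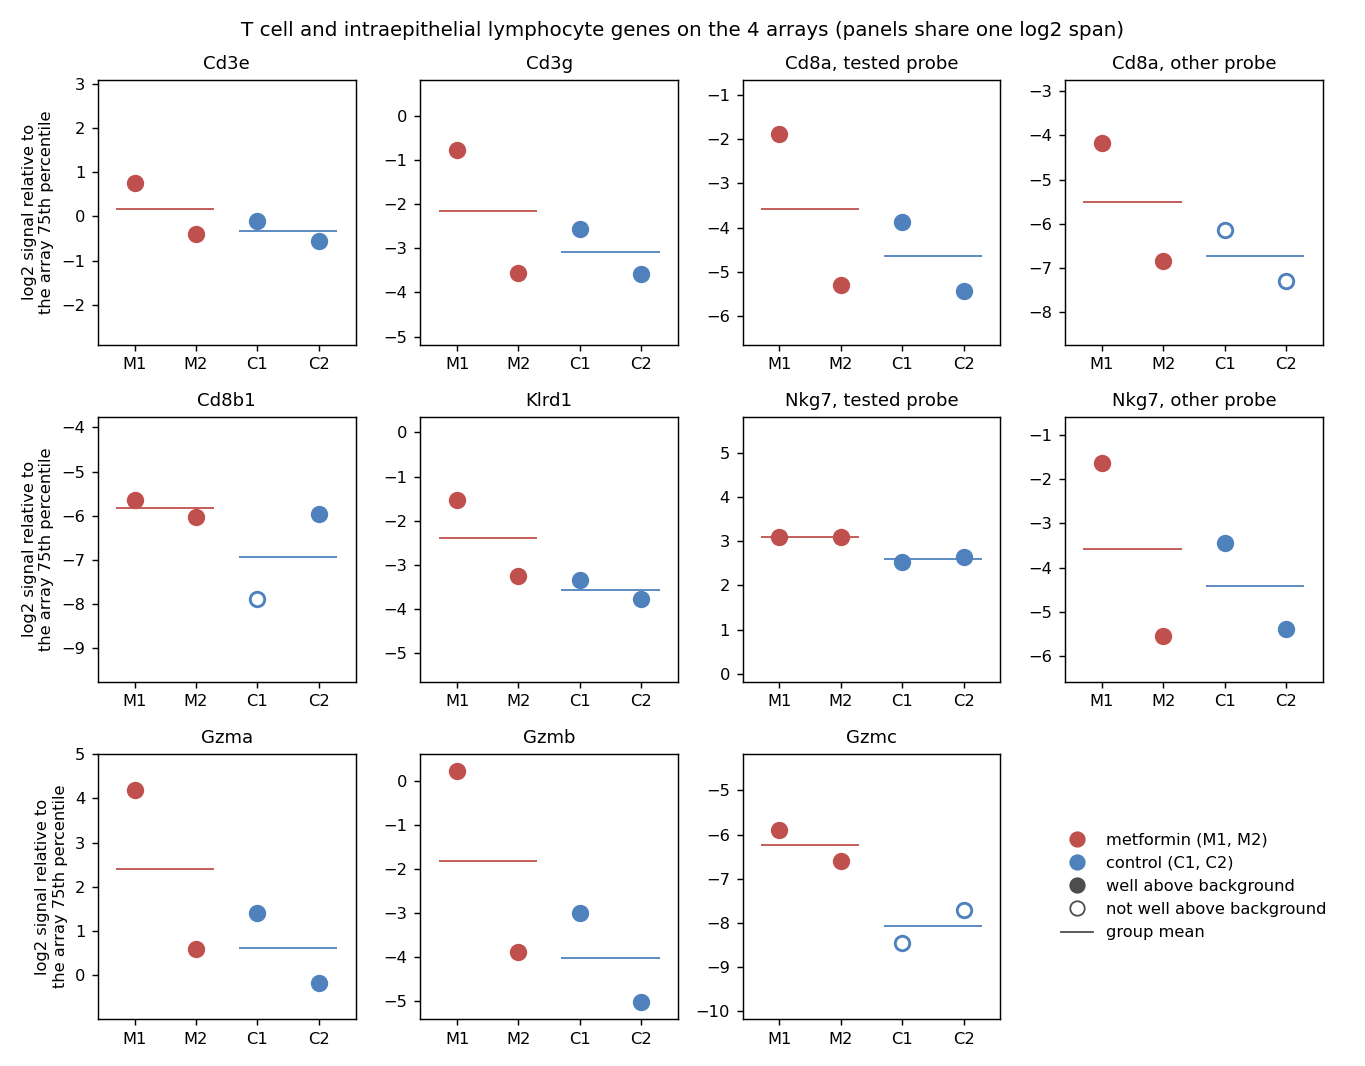
Log2 signal after subtraction of the 75th percentile of its array for each of the 11 probes on metformin 1 and 2 (M1, M2) and control 1 and 2 (C1, C2). Open circles mark signals not well above background and bars mark group means. In most panels M1 stands alone at the top while M2 lies within or near the controls.

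The CD3 chains carry the signal of every T cell receptor into the cell. Cd3e, which encodes the epsilon chain, was at 0.75 on metformin 1 and -0.41 on metformin 2, against -0.10 on control 1 and -0.56 on control 2. Metformin 1 was the highest array and metformin 2 lay between the controls, so the groups overlapped. The difference was 0.50 with a standard error (SE) of 0.50 (n = 2 per group; limma, unadjusted p = 0.368, adjusted p = 0.9996). Cd3g, which encodes the gamma chain, was at -0.78 on metformin 1 and -3.55 on metformin 2, against -2.57 on control 1 and -3.59 on control 2. Metformin 2 again lay between the controls, a little above control 2. The Cd3g difference was 0.92 (SE 1.03; limma, unadjusted p = 0.420).

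Cd8a and Cd8b1 encode the alpha and beta chains of the CD8 co-receptor. The alpha chain forms an alpha-alpha pair on many intraepithelial lymphocytes and an alpha-beta pair on conventional cytotoxic T cells. The tested Cd8a probe was at -1.87 on metformin 1 and -5.30 on metformin 2, against -3.87 on control 1 and -5.43 on control 2. It was printed as 10 spots per array, whose standard deviation (SD) was 0.05 and 0.14 on the metformin arrays, against 0.10 and 0.18 on the controls. The gap between the 2 metformin arrays, 3.43, was therefore larger than the spread between spots of one array. The group difference was 1.06 (SE 1.29; limma, unadjusted p = 0.453) and the groups overlapped.

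A second Cd8a probe, matched to a different transcript accession, was at -4.18 on metformin 1 and -6.84 on metformin 2, against -6.15 and -7.30 on the controls. Both controls were not well above background there, although their signals lay above the floor of their arrays. The metformin mean was 2.33-fold higher as measured, which is not a lower bound (limma on every kept probe, adjusted p = 0.9996). Metformin 2 lay between the controls, so the groups overlapped on this probe. Both Cd8a probes gave the same order of the 4 arrays. Cd8b1 was at -5.64 on metformin 1 and -6.03 on metformin 2, against -7.89 on control 1 and -5.96 on control 2. The low value was that of control 1, which was not well above background, and metformin 2 lay just under control 2. The Cd8b1 difference was 1.09 (SE 0.71; limma, unadjusted p = 0.195), with control 1 at the floor it was 0.36, and without control 1 it was 0.13.

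Klrd1 encodes CD94, a lectin-like receptor chain of natural killer cells and of some CD8 T cells that pairs with NKG2 chains. It was at -1.53 on metformin 1 and -3.24 on metformin 2, against -3.35 on control 1 and -3.77 on control 2. Both metformin arrays lay above both controls, with metformin 2 close to control 1. The mean was 2.26-fold higher with metformin, a log2 difference of 1.17 (SE 0.65; limma, unadjusted p = 0.140, adjusted p = 0.9996). Without metformin 1 the difference was 0.32.

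Nkg7 encodes a membrane protein of cytotoxic granules that takes part in their release. Its tested probe was at 3.1 on metformin 1 and 3.1 on metformin 2, against 2.53 on control 1 and 2.65 on control 2. This was the one gene of the 9 with nearly the same value on the 2 metformin arrays, and the groups did not overlap on this probe. The difference was 0.52 (SE 0.28; limma, unadjusted p = 0.129, adjusted p = 0.9996), and it was 0.52 without metformin 1 as well. The second Nkg7 probe carried the same accession and was at -1.63 on metformin 1 and -5.55 on metformin 2, against -3.45 on control 1 and -5.38 on control 2. On this probe the groups overlapped, metformin 2 was the lowest array and the difference was 0.83 (SE 1.49; limma on every kept probe, unadjusted p = 0.604). The 2 Nkg7 probes therefore disagreed in the pattern over arrays, and with their mean as the value of Nkg7 the groups overlapped. The order of arrays on the second probe was that of Cd3g and Cd8a at the top, with metformin 1 first and control 1 next.

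The granzymes are the proteases of the cytotoxic granule. The 300 bases around the annotated start of Gzma, Gzmb and Gzmc are shown because these 3 are the granzymes of the set. They run from 250 bases before the start to 50 after it and come from RefSeq on GRCm38.p6, all on the minus strand and written 5′ to 3′, Gzma at chr13:113100932-113101231, Gzmb at chr14:56262285-56262584 and Gzmc at chr14:56234608-56234907. Capitals mark TGTGGT, the core letters bound by RUNX factors, or their reverse complement ACCACA.
Gzma: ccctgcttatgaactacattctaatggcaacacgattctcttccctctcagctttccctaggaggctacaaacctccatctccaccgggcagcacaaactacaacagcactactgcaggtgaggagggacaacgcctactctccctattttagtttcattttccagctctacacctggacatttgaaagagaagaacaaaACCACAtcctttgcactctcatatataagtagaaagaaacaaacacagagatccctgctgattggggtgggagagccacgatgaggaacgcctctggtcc
Gzmb: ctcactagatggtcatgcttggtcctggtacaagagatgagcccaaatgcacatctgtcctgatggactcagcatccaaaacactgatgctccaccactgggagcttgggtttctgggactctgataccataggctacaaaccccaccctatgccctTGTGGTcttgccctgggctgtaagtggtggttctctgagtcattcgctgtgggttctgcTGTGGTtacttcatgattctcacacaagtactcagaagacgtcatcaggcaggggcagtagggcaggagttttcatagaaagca
Gzmc: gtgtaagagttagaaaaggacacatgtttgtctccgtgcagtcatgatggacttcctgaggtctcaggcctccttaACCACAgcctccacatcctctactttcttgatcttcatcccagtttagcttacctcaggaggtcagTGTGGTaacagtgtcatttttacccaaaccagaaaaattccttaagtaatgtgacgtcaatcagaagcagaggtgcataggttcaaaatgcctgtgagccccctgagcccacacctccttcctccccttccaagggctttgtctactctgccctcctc
The RUNX letters stood once in the Gzma window and at 2 places in each of the Gzmb and Gzmc windows. A window was found for 7 of the listed genes, and 4 of these 7, Gzma, Gzmb, Gzmc and Nkg7, held the letters on either strand, against 16.8% of 32851 windows of the same length. The cyclic AMP response letters TGACGT were in the windows of Cd3e, Gzmb and Gzmc, against 7.51% of all windows. The T-box letters GGTGTGA were in that of Nkg7, against 3.98%, and the ETS letters AGGAAG in those of Cd3e, Gzmc and Nkg7, against 35.4%. The motifs were chosen with the windows already seen, and a match of letters is a description and not a binding site.

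Gzma encodes granzyme A, a trypsin-like protease. Its probe was at 4.20 on metformin 1 and 0.59 on metformin 2, against 1.41 on control 1 and -0.19 on control 2. Metformin 1 was 12.1-fold above the control mean, and metformin 2 lay between the controls. The difference was 1.79 (SE 1.35; limma, unadjusted p = 0.252), a 3.45-fold higher mean, and without metformin 1 it was -0.02. Gzmb, which encodes granzyme B, a protease that activates caspases in the target cell, was at 0.23 on metformin 1 and -3.88 on metformin 2, against -2.99 on control 1 and -5.02 on control 2. Metformin 1 was 18.8-fold above the control mean, the highest such value of the 9 genes, while metformin 2 lay between the controls. The Gzmb difference was 2.18 (SE 1.56; limma, unadjusted p = 0.229), a 4.54-fold higher mean, and without metformin 1 it was 0.13.

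Gzmc belongs to a run of granzyme genes next to Gzmb on mouse chromosome 14. It was at -5.90 on metformin 1 and -6.59 on metformin 2, against -8.45 on control 1 and -7.71 on control 2. Both metformin arrays were well above background and both controls were not, so the probe was kept only through the metformin arrays. With the controls raised to the floor, the metformin mean was 1.58-fold higher. The measured difference was 1.83 (SE 0.44; limma, unadjusted p = 0.0112, adjusted p = 0.9996), but it rests on control levels that were not measured above background, and with the controls at the floor it was 0.66 and the groups overlapped. With normexp background correction it was 0.40 (limma, unadjusted p = 0.263). Its probe signal was 14.5 and 11.1 on the metformin arrays, against 2.61 and 6.96 on the controls, close to the dimmest signals called well above background. The neighbouring family members Gzmd, Gzme, Gzmf, Gzmg and Gzmn were not well above background on any of the 4 arrays. Their sequences are close to that of Gzmc, and probes of such families may share target RNA.

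**Figure D2:**
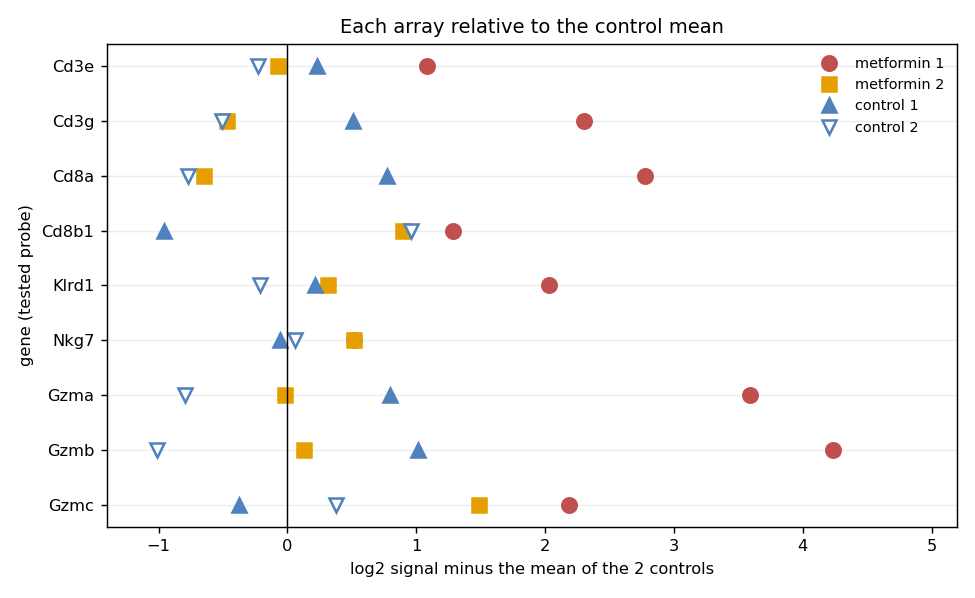
Log2 signal of each array minus the mean of the 2 controls for the tested probe of each gene, so that the controls lie at equal distances on either side of 0. Metformin 1 (circles) reaches 4.23 for Gzmb, whereas metformin 2 (squares) lies within the controls for 6 of the 9 genes, and for Nkg7 the square covers the circle. Both controls of Gzmc and control 1 of Cd8b1 were not well above background.

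Groups that did not overlap and differed by at least 2-fold were found for Klrd1 and Gzmc, 2 of the 9 genes, both higher with metformin, against 0.633% of all genes. With dim signals at the floor, Klrd1 alone remained, against 0.319% of all genes. At any size, 3 of the 9 genes, Klrd1, Nkg7 and Gzmc, were higher without overlap, against 12.5% of all genes, and none was lower, against 8.46%. With dim signals at the floor 2 genes, Klrd1 and Nkg7, were higher without overlap, against 11.5% of all genes. With the mean over the probes of a gene, Nkg7 was not. None of the 9 was at least 2-fold lower without overlap, against 2.31% of all genes. With overlap allowed, the group mean was at least 2-fold higher for 6 genes, Cd8a, Cd8b1, Klrd1, Gzma, Gzmb and Gzmc, against 1.24% of all genes. With dim signals at the floor this held for 4 genes, Cd8a, Klrd1, Gzma and Gzmb, against 0.864% of all genes, while Cd8b1 was 1.29-fold and Gzmc 1.58-fold higher. Both Cd8b1 and Gzmc were kept for the test only through the metformin arrays. Leaving out metformin 1 turned Cd3e to -0.08, Cd3g to -0.47, Cd8a to -0.65 and Gzma to -0.02, so that 5 of the 9 differences were positive and their median was 0.13. Leaving out metformin 2 left all 9 positive, with a median of 2.18. The share of all genes with a positive difference was not counted in these fits. For 6 of the 9 genes, all but Cd8b1, Nkg7 and Gzmc, metformin 1 was above metformin 2 and control 1 above control 2, against 45.7% of all genes.

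**Figure D3:**
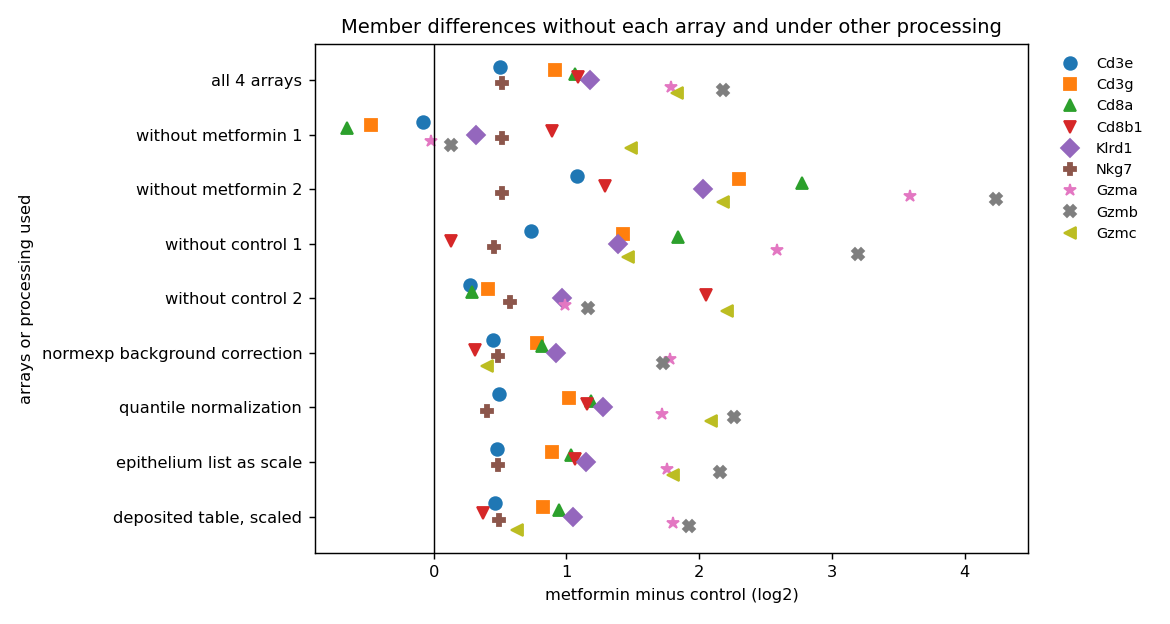
Metformin minus control difference on the log2 scale for the tested probe of each gene with all 4 arrays, without each array, and under other processing. Without metformin 1, 4 genes lie below 0, and the highest value of the plot, 4.23 for Gzmb, is reached without metformin 2.

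Genes that act beside the CD3 chains were read from a list of 20 genes of the T cell receptor complex and its proximal signalling, of which 13 were tested. No gene of the list passed the test in either direction. The difference was positive for 12 of the 13, against 57.9% of all genes, with a median of 0.59 against 0.06 over all genes. Relative to the control mean, the list's median was 1.11 on metformin 1 and -0.23 on metformin 2. Metformin 1 lay above both controls for 12 of the 13, against 42.7% of all genes, and metformin 2 for none, against 28.5%. Cd3d, the CD3 delta chain, was at -0.85 and -2.76 on the metformin arrays, against -2.60 and -2.46 on the controls. Cd2, an adhesion receptor of T cells, was at -1.0 and -2.36 on the metformin arrays, against -2.46 and -1.75 on the controls. Cd5, a surface receptor that tunes T cell receptor signalling, was at -2.69 and -3.24 on the metformin arrays, against -4.28 and -2.80 on the controls. The related Cd6 was at -2.77 and -3.33 on the metformin arrays, against -4.37 and -2.92 on the controls. For each of these 4 genes metformin 1 was the highest array and metformin 2 was under at least 1 control.

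Of 17 cytotoxic granule and effector genes other than the 4 followed here, 10 were tested and none passed in either direction. The median difference was 0.36, with 8 of the 10 positive, against 57.9% of all genes. Relative to the control mean, the list's median was 0.89 on metformin 1 and 0.08 on metformin 2. Prf1, which encodes perforin, was nearly level, at -2.61 and -2.60 on the metformin arrays, against -2.71 and -2.69 on the controls. Gzmk, a further granzyme, was at -3.08 and -3.07 on the metformin arrays, against -3.02 and -3.40 on the controls. Gzmm, a granzyme of innate cytotoxic cells, was at -4.16 and -3.69 on the metformin arrays, against -3.28 and -2.98 on the controls. Its groups did not overlap and it was lower with metformin, by a log2 difference of -0.79 (SE 0.33; limma, unadjusted p = 0.07, adjusted p = 0.9996). Fasl, the death ligand of cytotoxic lymphocytes, was at -3.61 and -5.73 on the metformin arrays, against -5.96 and -6.05 on the controls. Its difference was 1.33 (SE 0.77) with both metformin arrays above both controls. The differences of granule genes thus had both signs, with Gzma and Gzmb far above the controls on metformin 1 and Gzmk, Gzmm and Prf1 not.

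Natural killer receptors and adaptors numbered 15 on their list, with 4 tested, Hcst, Tyrobp, Fcer1g and Il2rb. The Klr receptors, Ncr1, Cd160, Cd244 and Cd226 of the list were not tested. The 4 tested genes are therefore adaptors and a shared cytokine receptor chain. All 4 were positive, against 57.9% of all genes, and none passed the test in either direction. Their median relative to the control mean was 1.31 on metformin 1 and 0.01 on metformin 2. Tyrobp, an adaptor that carries activating signals of natural killer and myeloid cells, was at 0.78 and -0.34 on the metformin arrays, against -0.80 and -0.49 on the controls. Hcst, the adaptor of NKG2D, was at 0.39 and -0.63 on the metformin arrays, against -0.48 and -0.79 on the controls. Il2rb, the receptor chain shared by interleukins 2 and 15, was at -2.08 and -3.77 on the metformin arrays, against -3.72 and -3.59 on the controls. Both metformin arrays were above both controls for Tyrobp alone of the 4 genes, against 12.5% of all genes. For Hcst metformin 2 lay between the controls.

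All 16 gut homing, retention and recirculation receptors were tested. None passed in either direction, 14 were positive, against 57.9% of all genes, and the median difference was 0.40. Over these receptors the median relative to the control mean was 0.87 on metformin 1 and -0.29 on metformin 2. Itgb7 encodes the beta chain that pairs with the Itgae product and with the Itga4 product. It was at -0.74 and -2.29 on the metformin arrays, against -1.97 and -2.04 on the controls. Itga4 was at -1.20 and -2.44 on the metformin arrays, against -2.28 and -1.84 on the controls. Ccr9, the receptor for the small intestinal chemokine CCL25, was at -2.61 and -4.07 on the metformin arrays, against -3.47 and -4.01 on the controls. Metformin 2 was the lowest of the 4 arrays for all 3 of these genes, and metformin 1 the highest.

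Of the 16 lymphocyte transcription factors, 14 were tested. None passed in either direction, 9 were positive, against 57.9% of all genes, and the median difference was 0.21. It was 0.49 with metformin 1 alone and -0.14 with metformin 2 alone set against the controls. Tbx21, which encodes T-bet, a driver of cytotoxic and interferon programmes, was at -2.76 and -5.25 on the metformin arrays, against -4.32 and -5.78 on the controls, a difference of 1.04 (SE 1.01). Runx3, a factor of CD8 T cells and of intestinal residence, was at -4.26 and -4.81 on the metformin arrays, against -4.62 and -4.79 on the controls, a difference of 0.17. The Tbx21 values kept the order seen for Gzma and Gzmb, with metformin 1 highest, control 1 next and control 2 lowest. Of 16 genes of CD4 helper, regulatory and innate lymphoid cells, 8 were tested and none passed in either direction, with a median difference of 0.26, and with 0.16 for metformin 1 and 0.26 for metformin 2 alone. Cd4 was at 5.74 and 3.36 on the metformin arrays, against 4.75 and 3.21 on the controls. Metformin 1 and control 1 were the 2 higher arrays for Cd4 too. Other genes of this list did not share that order, and control 1 was the lowest array for Icos (-5.91), Tnfrsf4 (-2.17) and Tnfrsf18 (-3.59). Of the 8 genes tested, metformin 1 was the highest array for 2, against 38.5% of all genes.

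Epithelial genes that support or bind intraepithelial lymphocytes were tested for 15 of 16 listed. None passed in either direction, and 13 were positive, against 57.9% of all genes. The median was 0.28, and it was 0.56 for metformin 1 and 0.01 for metformin 2 alone. Cdh1, which encodes E-cadherin, was at 4.56 and 4.85 on the metformin arrays, against 4.39 and 4.62 on the controls. Il15, a cytokine that sustains CD8 intraepithelial lymphocytes, was at 0.16 and -2.13 on the metformin arrays, against -0.45 and -2.33 on the controls. Il15ra, which presents that cytokine, was at 2.43 and 2.53 on the metformin arrays, against 2.37 and 2.41 on the controls. Cdh1 and Il15ra were close on all 4 arrays, whereas Il15 was higher on metformin 1 and control 1 than on the other 2 arrays.

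Markers of all leukocytes and of B cells were higher on metformin 1 as well. Ptprc, which encodes CD45 of all leukocytes, was at -1.34 and -2.67 on the metformin arrays, against -2.71 and -2.20 on the controls. Of 10 genes of all leukocytes, 9 had metformin 1 above both controls, against 42.7% of all genes. None had metformin 2 above both, against 28.5%. The summed level of the 10 genes was 23.9 and 9.42 on the metformin arrays, against 9.38 and 13.1 on the controls. Metformin 1 lay above both controls for 9 of 11 B and plasma cell markers too, against 42.7% of all genes. The summed level of these markers was 17.0 and 8.13 on the metformin arrays, against 12.4 and 12.8 on the controls. The 12 epithelium markers had summed levels of 1464 and 1546 on the metformin arrays, against 1331 and 1230 on the controls, and all 12 were well above background on the 4 arrays. Epcam was at 5.48 and 5.21 on the metformin arrays, against 5.43 and 5.0 on the controls. No gene of these lists passed the test in either direction, and their part in the lymphocyte differences was not tested.

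**Figure D4:**
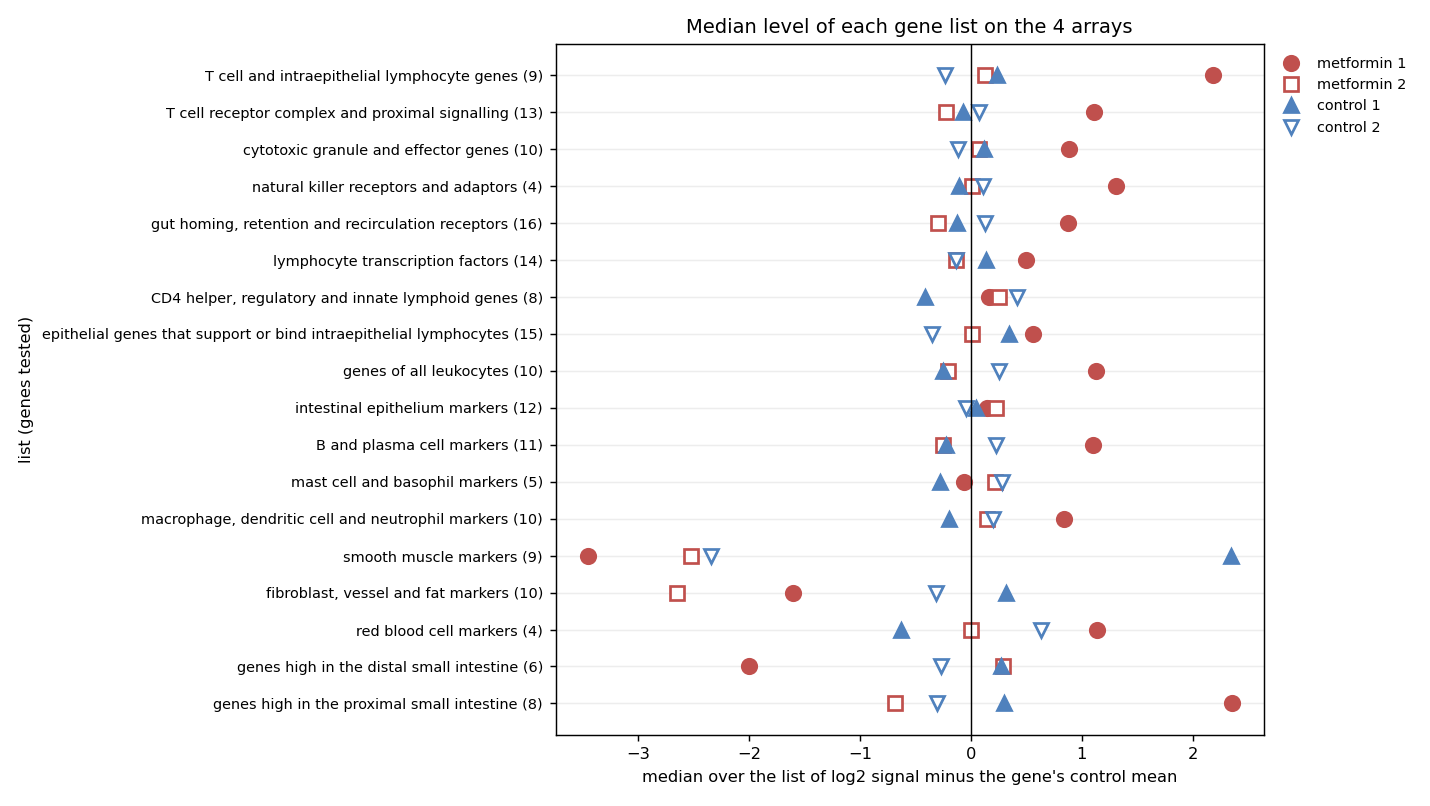
Median over each gene list on each array of log2 signal with the control mean of the gene subtracted, with the number of genes tested in parentheses. The lymphocyte lists other than that of CD4 helper cells have metformin 1 (filled circles) to the right of the other arrays. So do the lists of all leukocytes, B and plasma cells, macrophages, dendritic cells and neutrophils, and red blood cells. The epithelial support and proximal small intestine lists do as well. The distal list has metformin 1 to the left, and control 1 (filled triangles) is far right for smooth muscle.

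The 4-array pattern of the set was summarised as the median over its 9 genes of each value minus the gene's own mean, which was 1.45 on metformin 1 and -0.33 on metformin 2, against -0.09 on control 1 and -0.80 on control 2. Klrd1 was nearest to this pattern, with a root mean square distance of 0.144, and Gzmb furthest, with 1.12. The distance counts the size of a pattern as well as its shape, and Gzmb had the same order of arrays as the set. Among 14544 other named genes well above background on all 4 arrays, the nearest were Entpd7 (0.107), Gdpd2 (0.119), Vwce (0.121), Slc5a1 (0.136) and Lpgat1 (0.137), each over 4 arrays. Slc5a1, which encodes the sodium-glucose transporter SGLT1 of absorptive cells, was at 4.11 and 2.35 on the metformin arrays, against 2.82 and 2.12 on the controls. Entpd7, a nucleotide-hydrolysing enzyme, was at -0.82 and -2.65 on the metformin arrays, against -2.19 and -2.93 on the controls. Both genes repeated the order of metformin 1, control 1, metformin 2 and control 2. Arrays were also compared by number, after the data were seen. Metformin 1 minus control 1 had a median of 2.0 over the 9 genes, against 0.03 over all genes. Metformin 2 minus control 2 had 0.46, the value of the tested Nkg7 probe, against 0.07. The second Nkg7 probe gave -0.17. For number 2 the median was 0.10 over the cytotoxic list. Other lymphocyte lists gave -0.30 (T cell receptor), -0.01 (natural killer), -0.31 (homing), -0.10 (transcription factors) and -0.21 (CD4 helper).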

How the data were processed

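Ileal RNA of 2 metformin and 2 control samples was measured on single-colour arrays. The spot intensity values are on a linear scale and were made by the authors with Agilent Feature Extraction 10.7.3.1, which subtracted background and removed spatial trends within each array, per the file headers. A table that the authors deposited as normalized holds intensity values equal to the raw median spot signal for all 39030 probes with 1 spot, so it was scaled and used only as an alternative.

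From the deposited processed signal, log2 values minus each array's 75th percentile over non-control probes were computed here. Spots that the scanner software marked non-uniform or an outlier among their copies were dropped and the rest averaged per probe, which left 47 of 39429 probes without a usable value on every array. Accessions matched 27508 probes to 1 symbol of the RefSeq table of GRCm38.p6, whereas the array design names another build, so no probe positions are given. A probe was kept (26440 were) if the 2 arrays of either group showed it well above background, and the brightest kept probe of a gene was tested (21648 genes and unnamed transcripts). Metformin was compared with control with limma 3.58.1 (lmFit, eBayes) under R 4.3.3, in two-sided tests with Benjamini-Hochberg adjustment at 0.05. The fit had 2 residual degrees of freedom and was tested on simulated data. Where a signal was not well above background, its value at the floor was also used. This raised the value to the dimmest signal called well above background on its array, where the probe lay under it. The floor is not a limit of detection, since some signals above it were not called well above background. A fold at the floor is therefore not a bound. Other settings were normexp on the median spot signal (offset 50, since no mean signal was in the files), quantile normalization, other probe filters, the mean over the kept probes of a gene, the replicate block, scaling to epithelial markers, and leaving out each array. The epithelial scale subtracted the median level of the 12 epithelium markers on each array. That level was 6.16 and 7.18 on the metformin arrays, against 6.37 and 6.92 on the controls. Relative to each gene's control mean, the median of these markers was 0.14 and 0.22 on the metformin arrays, against 0.05 and -0.05 on the controls. The 2 metformin arrays thus differed more in this scale than in the markers gene by gene.

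The genes and lists were chosen with earlier results of these data known. The rule for named genes took all listed genes, the first 4 tested genes of each of 17 lists whatever their change, and the 5 genes of most similar pattern. Some genes of these lists are given only within the counts.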

Additional observations from a re-analysis of the deposited data

How the results depend on the processing

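No gene passed the adjusted test (limma) under any setting. The smallest adjusted p was 0.9996 with all 4 arrays, 0.082 without metformin 2 and 0.123 without control 2. At an unadjusted p under 0.05, 76 genes were called higher and 271 lower with all arrays. The differences of Klrd1 and Gzmb kept their direction under all 13 other settings with a test. Those of Nkg7, Gzmc and Cd8b1 did so under the 12 that gave them a value. Gzmc and Cd8b1 have none with probes well above background on all 4 arrays. For a gene with 1 kept probe, the probe filters, the probe mean and the replicate block return the same difference by construction. Those settings could not change its direction. When each array was left out in turn, Cd3e ranged between -0.077 and 1.08, Cd3g between -0.47 and 2.30, Cd8a between -0.65 and 2.78 and Gzma between -0.020 and 3.59, and the median over 65 other lymphocyte list genes between -0.15 and 0.86 (0.43 with all arrays), with the lowest values, all below 0, without metformin 1 and the highest without metformin 2. Over the 4 fits that left out 1 array each, genes of the set at least 2-fold higher without overlap numbered 1 to 8 (2 with all arrays), those higher without overlap at any size 3 to 9 (3), those with a positive difference 5 to 9 (9), and their median difference was 0.13 to 2.18 (1.09). In the same fits all genes at least 2-fold higher without overlap numbered 354 to 1540 (137), those lower 850 to 1776 (499), and other lymphocyte list genes higher without overlap 7 to 43 (4). With 3 arrays there are fewer values to overlap, so such counts are larger by construction. The shares of all genes higher without overlap at any size, or with a positive difference, were not counted in these fits. The counts at any size therefore have no background to be read against.

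With normexp, 0 genes of the set, 13 of all genes higher and 116 lower were at least 2-fold different without overlap. With the deposited table scaled, these counts were 1, 22 and 197. Without the filter on dim probes all genes numbered 318 higher and 811 lower, and with probes well above background on all 4 arrays 1 gene of the set and 41 of all genes were higher. Scaling to epithelial markers lowered metformin 2 most. With it 1 gene of the set was at least 2-fold higher without overlap, and 1 at any size. Of all genes 76 were at least 2-fold higher, and the share at any size was not counted. Other lymphocyte list genes higher at any size numbered 0. With every kept probe on its own, a setting added after the data were seen, 7 probes of other lymphocyte list genes were higher without overlap. A gene can count more than once there, so this is not comparable with the counts of genes. The share of all probes was not counted. Raising dim signals to the array floor was also added after the data were seen. It left 1 gene of the set and 69 of all genes at least 2-fold higher without overlap. At any size, 2 of the set were higher without overlap there, against 11.5% of all genes. With the mean over the kept probes of a gene, 2 of the set were higher at any size, without Nkg7. The cause of these shifts was not tested. Dim probes such as those of Gzmc and Cd8b1 are limited by signal over background.

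The labels number the samples 1 and 2 in each group, with nothing that says what a number shares. Deviations from the group means correlated at r = 0.563 across genes between same-numbered arrays, which over 2 pairs does not show a pairing. In this balanced layout the replicate block cannot move a difference or an overlap, so the median difference is 1.09 with it by construction. With the replicate block 0 genes passed (limma, smallest adjusted p 0.631). With it 3 genes of the set, Gzmb, Nkg7 and Gzmc, had an unadjusted p under 0.05 (limma), against 1, Gzmc, without it. The share of all genes under that p was not counted with the block. Differences by number, a comparison also added after the data were seen, are given in the Results.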

Other observations

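Mast cell and red blood cell genes were also measured. Mcpt1, a protease of mucosal mast cells, was at -2.29 and -1.95 on the metformin arrays, against -2.60 and -1.77 on the controls. Mcpt2, a related protease, was at -3.60 and -3.14 on the metformin arrays, against -3.64 and -3.08 on the controls. Both genes overlapped between the groups, and metformin 1 was not their highest array. Of 5 mast cell and basophil markers tested, metformin 1 lay above both controls for 1, against 42.7% of all genes. Hba-a1, an alpha globin gene of red blood cells, was at 4.10 and 2.94 on the metformin arrays, against 2.46 and 3.68 on the controls, with metformin 1 the highest and control 1 the lowest. All 4 red blood cell markers tested had metformin 1 above both controls, against 42.7% of all genes.

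Of 10 macrophage, dendritic cell and neutrophil markers tested, metformin 1 lay above both controls for 9, against 42.7% of all genes. Metformin 2 did for 5, against 28.5%. Adgre1, which encodes a surface antigen of macrophages, was at -2.18 and -2.71 on the metformin arrays, against -3.35 and -2.87 on the controls, without overlap. Of 10 fibroblast, vessel and fat markers, 9 were lower without overlap, against 8.46% of all genes. Col1a1, a chain of type I collagen, was at -1.31 and -2.21 on the metformin arrays, against 1.27 and -0.44 on the controls. Neither Adgre1 nor Col1a1 passed the adjusted test (limma, adjusted p = 0.9996).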
